A study of Mus musculus with 6 samples.

Results

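SR proteins and hnRNP proteins are families of nuclear RNA-binding proteins that set how pre-mRNA is spliced, and their mRNAs were followed here in mouse hippocampus after the loss of Dicer1. The genes were taken by name: every symbol in the deposited tables that begins with Srsf or Hnrnp, without pseudogenes marked as such. That gave 29 genes (11 Srsf and 18 Hnrnp) of 25896 symbols, and each gene was represented by the annotated transcript with the highest mean raw count over the 6 libraries. All 29 passed the filter on low counts, as did 17405 symbols in all.

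The study sequenced hippocampal mRNA of DICER1-ifKO mice, in which neuronal Dicer1 is removed in adult animals, and of WT mice. DICER1-ifKO mice were Dicer1 flox/flox, carried CaMKIIa-creERT2 and were given tamoxifen. WT mice were also Dicer1 flox/flox and were also given tamoxifen, but carried no Cre. All mice were C57BL/6 males of 3 months, killed 3 weeks after tamoxifen. There were 3 libraries per genotype, and each held RNA pooled from 3 mice. The CaMKIIa promoter drives the tamoxifen-activated recombinase in excitatory forebrain neurons, so inhibitory neurons, glia and vessels of the same hippocampus keep Dicer1. The loss of Dicer1 and an effect of the recombinase itself cannot be told apart in this design.

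Dicer1 is the ribonuclease that cuts hairpin precursors into mature microRNAs, which repress mRNAs mainly through sites in the 3′ UTR. SR proteins carry RNA recognition motifs and a domain rich in arginine-serine repeats; they bind exonic enhancers, recruit the spliceosome and help to export and translate mRNA. hnRNP proteins coat nascent RNA and often oppose SR proteins, masking splice sites or looping exons out. In neurons several hnRNP proteins also carry mRNAs into dendrites and axons. Both families regulate their own mRNA through exons or introns that carry a premature stop and send the transcript to nonsense-mediated decay.

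Library sums over the representative transcripts were 15409076, 18008739 and 20677846 counts in the DICER1-ifKO libraries and 11832791, 15826347 and 16125477 in the WT libraries. Dicer1 had 58.2, 62.9 and 58.0 CPM (counts scaled to library size) in the DICER1-ifKO libraries and 55.6, 62.0 and 55.8 in the WT libraries; its count covers the whole transcript and not the floxed part alone, so it does not check the deletion. Among the cell type markers, Calb1 of dentate granule cells passed the test as lower in DICER1-ifKO (log2 fold change -0.27, edgeR adjusted p = 0.0323). With 1 library left out, the edgeR adjusted p of Calb1 ran between 0.0355 and 0.363. The 4 dentate markers together summed to 228 to 244 CPM in DICER1-ifKO libraries and 259 to 267 in WT libraries. They did not move alike: Dsp was at -0.14 and Prox1 at 0.01. The 5 astrocyte markers summed to 903 to 924 CPM in DICER1-ifKO and 927 to 943 in WT, with 0 of them past the threshold. Aqp4 was at -0.16 and Gfap at -0.09, while 2 of the 5 were positive, among them Slc1a3 at 0.01. The 5 excitatory neuron markers summed to 5247 to 5604 CPM in DICER1-ifKO and 5097 to 5244.5 in WT. Camk2a (log2 fold change 0.11) made up most of that sum. It had 3539, 3497 and 3712.5 CPM in DICER1-ifKO and 3278.5, 3319 and 3393.5 in WT. Nrgn was at -0.09 and Neurod6 at -0.02, and the median of the 5 was 0.00. The nearest libraries of the sums were almost level and 0 of the 5 passed (3 positive, 2 negative). No defining marker of any cell type list was at 0, and the part of these differences in the values below was not tested. WT replicate 1, the shallowest library, stood apart from the other 5 on the first principal component (30.4% of the variance). Its deviations also ran against transcript length (Spearman's rho -0.27 across 16766 genes, which are not independent replicates). Over the same genes the log2 fold change between the genotypes ran with transcript length (rho 0.20). Values without WT replicate 1 are given beside Srsf12, Hnrnpu and the lists of partner genes.

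No SR or hnRNP gene differed between the genotypes beyond the threshold. With p-values from edgeR's quasi-likelihood test, adjusted by Benjamini-Hochberg over 17405 genes, 0 of the 29 came in under 0.05, where 28 genes of all tested did (0.161%; 22 higher in DICER1-ifKO, 0.126%, and 6 lower, 0.0345%). At an unadjusted p under 0.05, 4 of the 29 were counted (13.8%), against 1815 of all genes (10.4%), and DESeq2 called 0 of the 28 for which it gave an adjusted p (it gave none for Srsf12). The smallest edgeR adjusted p, 0.153, belonged to Hnrnpab. The differences were small as well as uncalled. Of the 29 log2 fold changes (DICER1-ifKO over WT), 26 lay within 0.1 of zero, and the 95% confidence intervals of 26 genes lay wholly within 0.2 of zero. Over the 29 genes the intervals reached no lower than -0.37 and no higher than 0.18, and the median distance from estimate to bound was 0.10. Such bounds describe whole hippocampus: fewer cells of a type and less RNA per cell cannot be told apart in it, and cells that keep Dicer1 add to every value.

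The small differences leaned downward. Of the 29 genes 21 had a negative log2 fold change (72.4%), against 8881 of all genes tested (51%), and the median was -0.05 against -0.00 over all genes. In 7 genes every DICER1-ifKO library lay below every WT library, and in 2 every DICER1-ifKO library lay above. Those 9 make up 31.0% of the 29, where 16.1% of all genes tested did not overlap between the genotypes (8.07% lower and 7.99% higher in DICER1-ifKO). Replicates varied little, with a median coefficient of variation of 3.02% in DICER1-ifKO libraries and 3.92% in WT libraries over the 29 genes, against 5.99% and 7.14% over all genes tested. The 1 WT library that weighed most on the median was replicate 2, in which these mRNAs stood highest: without it the median was -0.02. With all 6 libraries and an offset for transcript length and GC content, the median was -0.03.

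**Figure D1:**
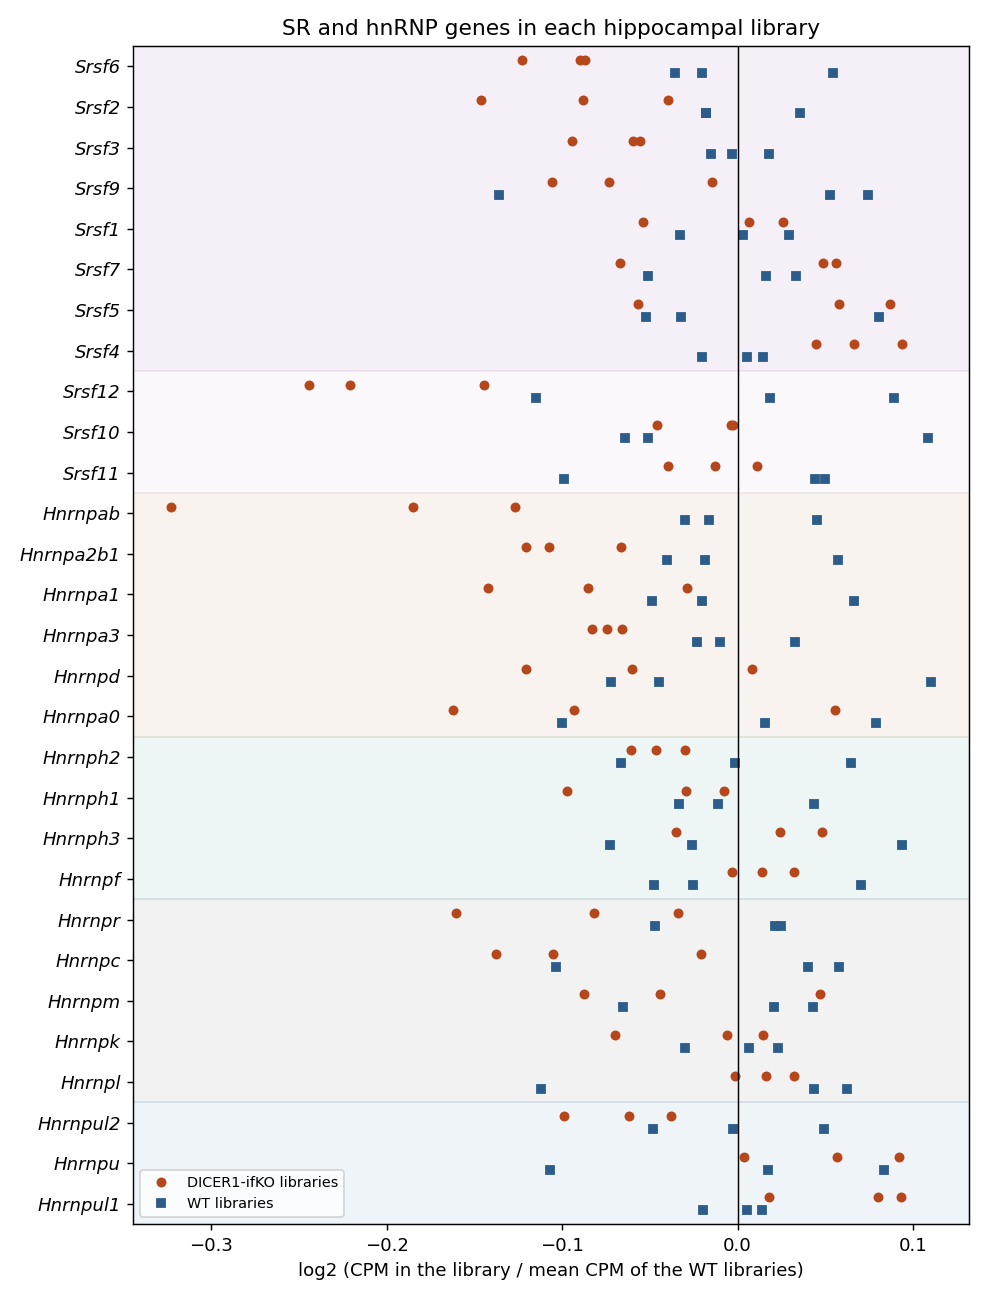
SR and hnRNP mRNA in each library. Each row is a gene, and the horizontal axis is the log2 ratio of its CPM in a library to the mean CPM of the WT libraries; circles are the 3 DICER1-ifKO libraries, squares the 3 WT libraries and shading marks protein families. Circles and squares overlap in 20 of 29 rows; Hnrnpab and Srsf12 have the circles farthest to the left.

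Among the 8 classical SR proteins, which activate splicing in the textbook model, 5 log2 fold changes were negative and 3 positive, with a median of -0.03. Srsf6, whose protein has a pair of RNA recognition motifs, had 105, 105 and 103 CPM in DICER1-ifKO libraries against 110.3, 109 and 116 CPM in WT libraries. The genotypes did not overlap, and the log2 fold change was -0.10 (SE 0.05, edgeR adjusted p = 0.472). Srsf2, also known as SC35, had 99.5, 104 and 107 CPM in DICER1-ifKO libraries against 109, 109 and 113 CPM in WT libraries. Its log2 fold change was -0.09 (SE 0.05, adjusted p = 0.548 in the same test), again with no overlap. Srsf3, a small SR protein that also serves as an adaptor for mRNA export, had the third non-overlapping pair of groups on the low side, at 93.2, 95.8 and 95.5 CPM in DICER1-ifKO against 101, 98.5 and 99.3 CPM in WT (log2 fold change -0.07, SE 0.05).

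Srsf4 stood highest of the 29 in log2 fold change. It had 66.0, 65.0 and 67.2 CPM in DICER1-ifKO libraries against 62.1, 63.3 and 63.6 CPM in WT libraries, a log2 fold change of 0.07 (SE 0.05, edgeR adjusted p = 0.714). The groups did not overlap, but the gap between the lowest DICER1-ifKO and the highest WT library was narrow. Srsf5 had 291, 297 and 269 CPM in DICER1-ifKO libraries and 274, 296 and 269.9 CPM in WT libraries (0.03, SE 0.05), with full overlap. Srsf1, the founding member of the family, was the flattest of the classical SR genes: 151, 153 and 145 CPM in DICER1-ifKO against 151, 154 and 147 CPM in WT, a log2 fold change of -0.01 (SE 0.05, 95% confidence interval -0.10 to 0.09). Srsf7, a relative of Srsf3 with a zinc knuckle, was at 0.02 (SE 0.05) and Srsf9 at -0.06 (SE 0.06), both with overlapping libraries. Summed over the 8 genes, classical SR mRNA came to 948, 968 and 937 CPM in DICER1-ifKO libraries against 959, 981 and 949 CPM in WT libraries.

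The 3 divergent members were all negative, but 2 of them barely so. Srsf12, a relative of Srsf10 known as an antagonist of classical SR proteins in splicing assays, had the lowest log2 fold change of the 29. It had 23.2, 22.0 and 21.6 CPM in DICER1-ifKO libraries against 23.7, 27.3 and 25.9 CPM in WT libraries, and the log2 fold change was -0.21 (SE 0.08, 95% confidence interval -0.37 to -0.05, edgeR adjusted p = 0.322). The groups did not overlap, although the highest DICER1-ifKO library lay just under WT replicate 1; without that WT library the value was -0.26, and without WT replicate 2 it was -0.16. It was also the scarcest gene of the set, and its interval the widest. Srsf10, which represses splicing when it is dephosphorylated, was at -0.02 (SE 0.06), and Srsf11, a partner of the neuronal microexon factor Srrm4, was also at -0.02 (SE 0.05).

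Of the hnRNP families, the A/B/D group was the one in which every gene lay on the same side. These proteins share a pair of RNA recognition motifs and a glycine-rich tail. All 6 log2 fold changes were negative, with a median of -0.08, and 0 of the 6 passed the test. All 6 kept a negative sign under each of the 13 alternative settings that were computed, but the sizes moved: without WT replicate 2 Hnrnpd was at -0.00, and Hnrnpa0 ran between -0.12 and -0.01 with 1 library left out. With an offset for transcript length and GC content the median of the 6 was -0.05, with Hnrnpa2b1 at -0.06 and Hnrnpa1 at -0.05. Their summed CPM was 1194, 1181 and 1183 in DICER1-ifKO libraries against 1250.3, 1304 and 1239 in WT libraries. The DICER1-ifKO sums lay close together and below all 3 WT sums, with a mean of 1186 ± 7.22 CPM in DICER1-ifKO against 1265 ± 34.8 CPM in WT (SD, n = 3 each).

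Hnrnpab had the smallest p of the 29. This protein, also called CBF-A, binds the RNA element that directs mRNAs into dendrites and oligodendrocyte processes. It had 91.7, 83.4 and 95.5 CPM in DICER1-ifKO libraries against 108, 103 and 102 CPM in WT libraries, so all DICER1-ifKO values lay below all WT values. The log2 fold change was -0.21 (SE 0.05), a difference of -13.4% with a 95% confidence interval of -19.9% to -6.30%; the edgeR adjusted p of 0.153 missed the threshold. Across the 13 alternatives the adjusted p ran between 0.0498 and 0.492, and the single value under the threshold came from the test with no filter on low counts.

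Hnrnpa2b1, a reader of methylated adenosines that also sorts RNAs in neurites, was the most abundant mRNA of the set per length. It had 407, 419 and 403 CPM in DICER1-ifKO libraries against 433, 456 and 427 CPM in WT libraries, with no overlap (log2 fold change -0.10, SE 0.04, adjusted p = 0.446 in edgeR's test). Hnrnpa3 varied least of the 29 among DICER1-ifKO libraries, at 317, 319 and 315 CPM in DICER1-ifKO libraries against 332, 342 and 329 CPM in WT libraries (-0.07, SE 0.04). Hnrnpa1, the best studied splicing repressor of the family, had 206, 191 and 198 CPM in DICER1-ifKO against 203, 220.2 and 207 CPM in WT (-0.09, SE 0.05), and here 1 DICER1-ifKO library lay above the lowest WT library. Hnrnpd, known as AUF1, a factor that binds AU-rich elements and speeds mRNA decay, was at -0.06 (SE 0.05) with overlapping libraries. So was Hnrnpa0, at -0.06 (SE 0.06).

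**Figure D2:**
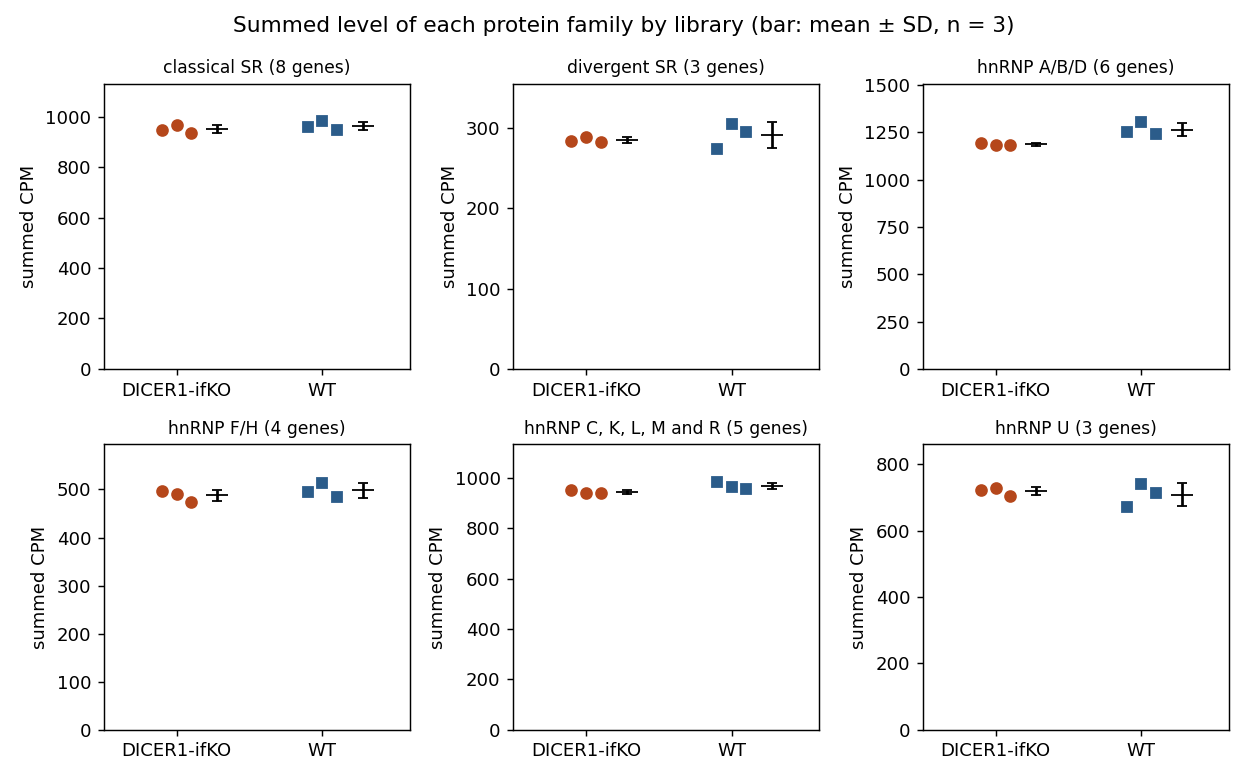
Summed CPM of each protein family in each library, with bars for mean ± SD (n = 3 libraries per genotype) and vertical axes that start at 0. The A/B/D sums of the DICER1-ifKO libraries, 1181 to 1194 CPM, lie below the WT sums, 1239 to 1304 CPM; in the classical SR, divergent SR, F/H and U panels the genotypes overlap.

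The other hnRNP families each held values of both signs. The F/H group, whose proteins bind runs of guanosines, had 2 negative and 2 positive values between -0.05 and 0.02: Hnrnph1 at -0.04, Hnrnph2 at -0.05, Hnrnph3 at 0.01 and Hnrnpf at 0.02 (SE 0.05 to 0.06). Hnrnpf had 59.9, 59.1 and 58.4 CPM in DICER1-ifKO libraries, inside the WT range of 61.5, 57.5 and 56.6 CPM. Among C, K, L, M and R, 4 of 5 were negative, and their sums of 953, 941 and 939.5 CPM in DICER1-ifKO libraries lay just below the 983, 963 and 957 CPM of the WT libraries. Hnrnpr, which in motor neurons binds mRNAs carried to axons, had 88.1, 91.1 and 83.5 CPM in DICER1-ifKO libraries against 94.7, 90.3 and 94.9 CPM in WT libraries (-0.09, SE 0.05), with 1 DICER1-ifKO library above the lowest WT library. Hnrnpc, which coats uridine tracts, was at -0.09 (SE 0.05), and Hnrnpm, a binder of GU-rich RNA, at -0.03 (SE 0.05), both with overlapping groups.

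Hnrnpl, which binds CA repeats, had 180.1, 182 and 178 CPM in DICER1-ifKO libraries and 186, 165 and 184 CPM in WT libraries (0.02, SE 0.05); all DICER1-ifKO values lay between the WT values. Hnrnpk, a KH-domain protein that binds poly-C RNA, had 372, 356 and 378 CPM in DICER1-ifKO libraries and 379.9, 376 and 366 CPM in WT libraries (-0.02, SE 0.04, 95% confidence interval -0.11 to 0.07). The U group holds large nuclear proteins that bind both RNA and chromatin or act in the DNA damage response. Hnrnpul1 was the other gene with every DICER1-ifKO library on the high side, at 92.8, 91.9 and 88.0 CPM against 85.8, 87.3 and 87.8 CPM in WT (0.06, SE 0.05, edgeR adjusted p = 0.721); the nearest libraries of the genotypes were almost level. Hnrnpu, the scaffold attachment factor, had 447, 458 and 431 CPM in DICER1-ifKO libraries and 399, 455 and 435 CPM in WT libraries. WT replicate 1 was the lowest of the 6, and the log2 fold change of 0.05 (SE 0.05) was 0.00 without it. Hnrnpul2 was at -0.07 (SE 0.05) with overlapping groups.

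**Figure D3:**
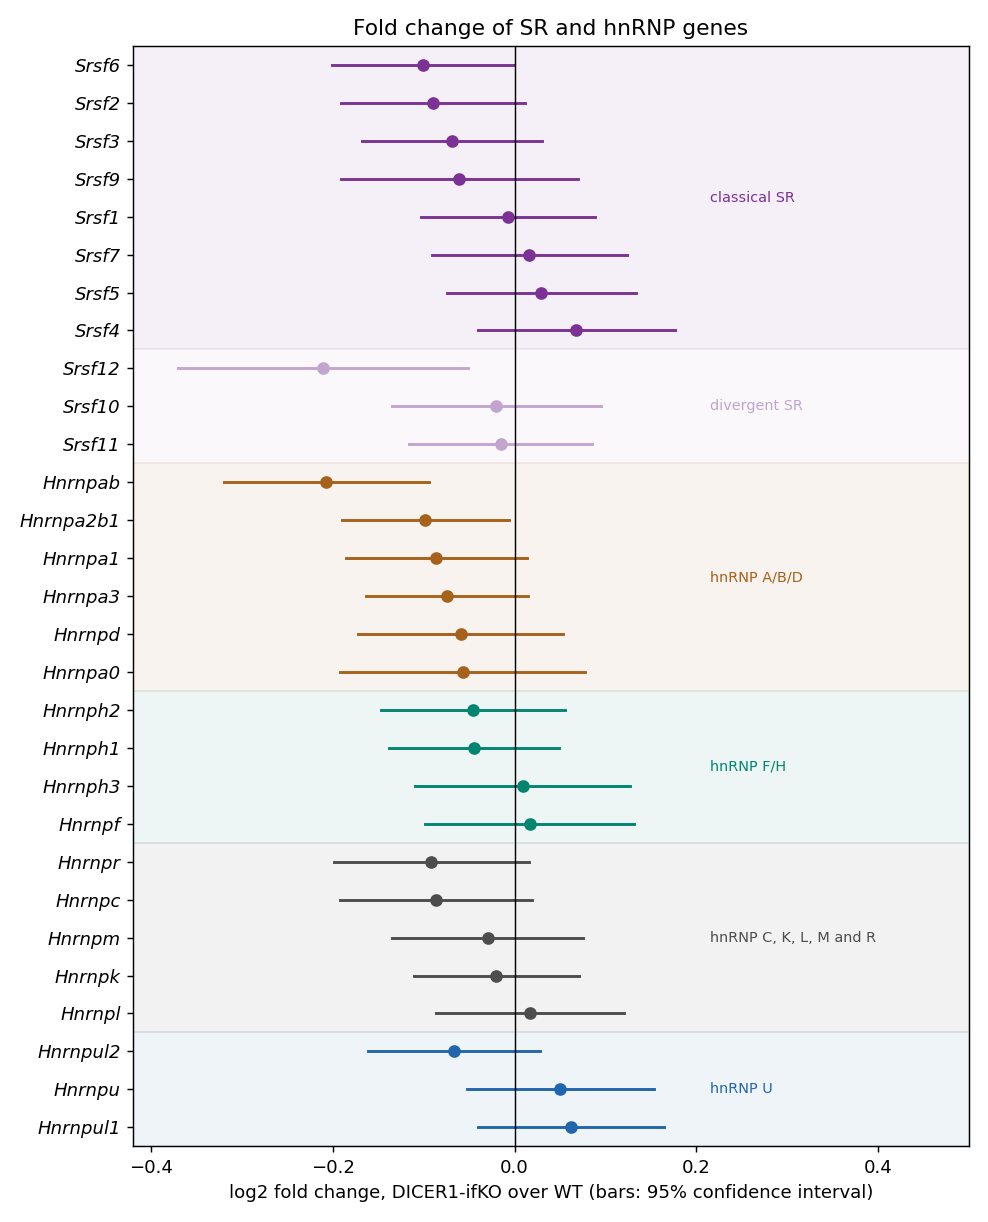
Log2 fold change of each gene, DICER1-ifKO over WT, with its 95% confidence interval, grouped by protein family. Points lie between -0.21 and 0.07, and the intervals of Hnrnpab, Srsf12, Hnrnpa2b1 and Srsf6 alone do not reach zero.

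The levels of the 29 mRNAs differed far more between genes than between genotypes. Per kilobase of transcript the highest mean level was 31.6 times the lowest. Hnrnpa2b1 led with 249 ± 4.92 CPM per kilobase in DICER1-ifKO and 266 ± 9.53 in WT (SD, n = 3 each). Hnrnpu followed with 157 ± 4.81 in DICER1-ifKO and 151 ± 10.01 in WT, then Hnrnpk with 124 ± 3.75 in DICER1-ifKO and 126 ± 2.35 in WT. Those 3 steps at the top showed no overlap between the libraries of neighbouring genes. Hnrnpa1, Hnrnph1 and Srsf5 came next at 106, 105 and 104 CPM per kilobase over the 6 libraries, and these neighbours overlapped. Across the order, 20 of the 28 neighbouring pairs in the order overlapped. At the low end Srsf10 had 20.2 ± 0.342 CPM per kilobase in DICER1-ifKO and 20.5 ± 1.39 in WT, and Srsf12 had 7.58 ± 0.276 in DICER1-ifKO and 8.72 ± 0.618 in WT. Among 16766 tested genes with a length, the 29 had level percentiles between 51.6 for Srsf12 and 99.1 for Hnrnpa2b1, with a median of 88.5. Lengths were those of 23 transcripts with identical coordinates in GENCODE M21 and, for 6, of the transcript of the same gene with the nearest ends. Hnrnpa2b1 is among these 6 (1647 bases), so its top place and the factor of 31.6 rest on that length. Before division by length Hnrnpa2b1 had a mean of 410 CPM in DICER1-ifKO and 439 in WT, and Hnrnpu 445 and 430.

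**Figure D4:**
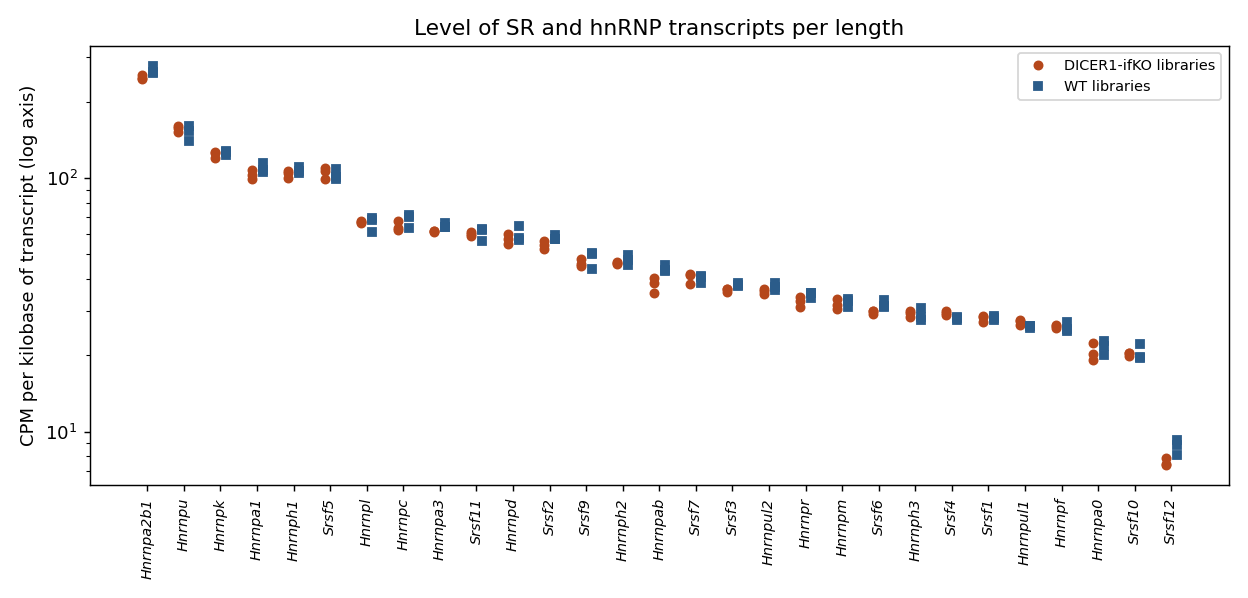
Level of each mRNA in CPM per kilobase of transcript on a log axis, from highest to lowest; circles are DICER1-ifKO libraries and squares WT libraries. Hnrnpa2b1 stands at the top near 258 and Srsf12 at the bottom near 8.15, and the genotypes stay close at each gene.

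Because SR and hnRNP genes control themselves through alternative transcripts, each annotated transcript was also tested. The deposited counts give a read in a shared exon to every transcript that holds it, so transcripts of a gene are not independent; CPM and log2 fold changes in this test are scaled over all transcripts. The 29 genes had 189 transcripts, between 1 and 21 per gene. Of these 0 passed an edgeR adjusted p of 0.05 over 60500 transcripts, where 47 did in all (0.0777%), and 17 in 8 genes had an unadjusted p under 0.05 (8.99%, against 9.44% of all transcripts). DESeq2 called 0 of the 135 for which it gave an adjusted p, and the smallest edgeR adjusted p was 0.179, for Hnrnpab-001.

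No class of transcript held a call. The 21 annotated as targets of nonsense-mediated decay were at a median of -0.02 on the log2 scale and ran between -0.13 and 0.08, with 0 called. The 38 with a retained intron had a median of -0.00, and 19 of them were negative. The 83 protein-coding transcripts had a median of -0.04. Within genes the median gap between the lowest and the highest transcript was 0.07 on the log2 scale, over the 24 genes that had 2 or more transcripts with a mean count of 50 and above.

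The widest gap belonged to Hnrnpl, at 0.32. Its transcript Hnrnpl-007, a retained-intron form at the 3′ end (chr7:28821213-28822244, plus strand, GRCm38), had 16.5, 16.8 and 16.2 CPM in DICER1-ifKO libraries against 21.8, 15.3 and 19.4 CPM in WT libraries (log2 fold change -0.18, SE 0.09, edgeR adjusted p = 0.530). The WT libraries were spread on both sides of the DICER1-ifKO libraries, and the low one was replicate 2; without it the adjusted p was 0.0454. Hnrnpl-011, a retained-intron form inside the gene, stood on the other side with 10.8, 10.2 and 10.3 CPM in DICER1-ifKO libraries against 10.5, 8.10 and 9.91 CPM in WT libraries (0.14, SE 0.09).

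Hnrnpr had the next gap. Hnrnpr-004, a short form with only 42 to 68 counts per library, had 1.53, 0.963 and 1.38 CPM in DICER1-ifKO libraries against 1.88, 1.44 and 1.56 CPM in WT libraries (-0.32, SE 0.20). Hnrnpr-008, annotated as a target of nonsense-mediated decay, had 10.3, 9.15 and 9.71 CPM in DICER1-ifKO against 9.31, 10.04 and 10.06 CPM in WT (-0.02, SE 0.08), and both transcripts overlapped between the genotypes. In Hnrnpd the low end was Hnrnpd-011 (-0.23, SE 0.09), at 10.2, 8.26 and 8.74 CPM in DICER1-ifKO against 10.1, 11.2 and 10.4 CPM in WT. Its high end was Hnrnpd-008 (0.05, SE 0.09), at 8.16, 8.49 and 6.95 CPM in DICER1-ifKO against 7.07, 8.03 and 7.58 CPM in WT, again with overlap in both. Hnrnpd-008 shares 59.0% of its length with Gm17092 on the other strand, which had a mean count of 43.2.

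Hnrnpf-004 was higher in every DICER1-ifKO library, at 5.82, 5.46 and 5.23 CPM against 5.19, 4.29 and 5.02 CPM in WT (0.19, SE 0.11, edgeR adjusted p = 0.592), though the nearest libraries were almost level. Hnrnpf-004 shares 25.0% of its length with Gm43863 on the other strand. Hnrnpf-009 had 20.8, 20.7 and 20.8 CPM in DICER1-ifKO against 22.4, 21.2 and 20.4 CPM in WT (-0.04, SE 0.06). In Srsf10 the gap was 0.19 and lay between a pair of short noncoding forms, each with overlapping libraries. Srsf10-008 had 4.91, 4.43 and 3.89 CPM in DICER1-ifKO against 4.36, 5.44 and 4.30 CPM in WT (-0.11, SE 0.12), and Srsf10-010 had 3.01, 2.84 and 3.02 CPM in DICER1-ifKO against 2.38, 3.40 and 2.54 CPM in WT (0.08, SE 0.14). In Srsf11 the gap was 0.16, between retained-intron forms that also overlapped. Srsf11-011 had 4.99, 5.78 and 5.45 CPM in DICER1-ifKO against 6.31, 5.52 and 5.81 CPM in WT (-0.11, SE 0.10), and Srsf11-004 had 16.8, 17.5 and 16.4 CPM in DICER1-ifKO against 13.2, 18.1 and 17.2 CPM in WT (0.05, SE 0.08). The 3 coding transcripts of Hnrnpab, by contrast, lay together at -0.22, -0.22 and -0.21.

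**Figure D5:**
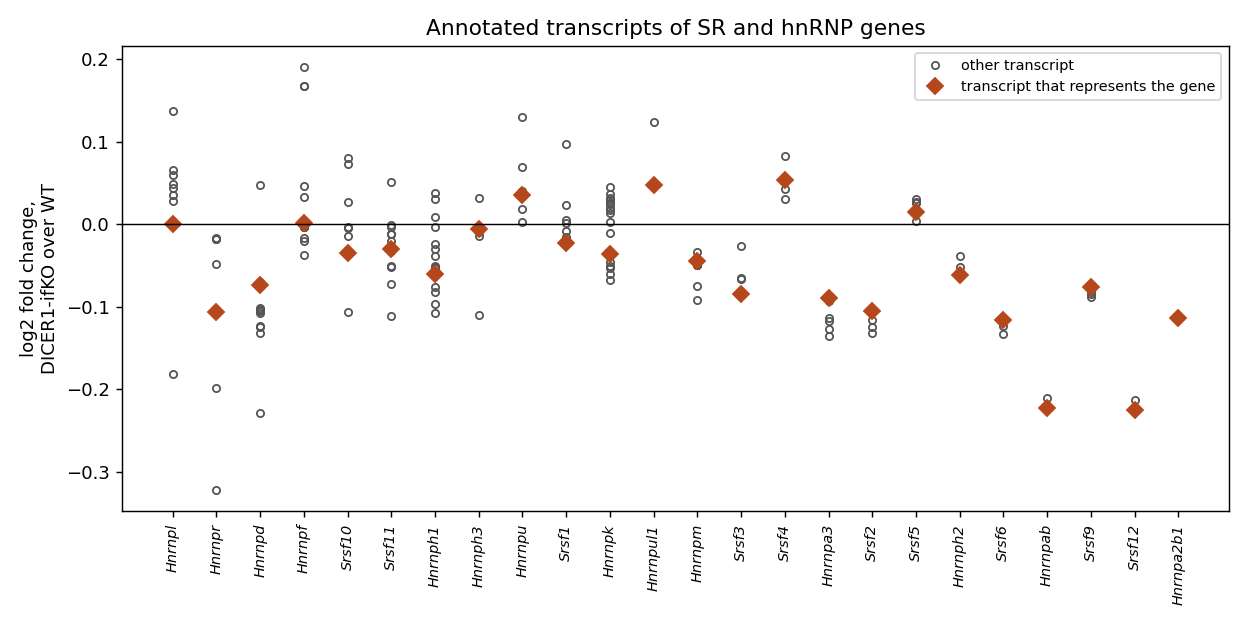
Log2 fold change of each annotated transcript with a mean count of 50 and above, DICER1-ifKO over WT, in the 24 genes that had 2 or more such; genes run from the widest to the narrowest gap. Diamonds mark the transcript that represents the gene and open circles the others. Hnrnpl, Hnrnpr, Hnrnpd and Hnrnpf spread widest, and the transcripts of Hnrnpab and Srsf12 lie together below zero.

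Some of these genes share exons with a neighbour, and whether the authors counted reads by strand is not given in the sources used here, so reads of the 2 strands could not be told apart. Exons of Hnrnpab overlap Phykpl on the other strand, listed as Agxt2l2 in the files, over 29.1% of the annotated Hnrnpab exons. Agxt2l2 had nearly as many reads (mean count 1503, against 1572 for Hnrnpab) and a log2 fold change of -0.17 (SE 0.05). Hnrnpab-003, the transcript that shares least with it (17.0% of its length), was at -0.21, against -0.22 for Hnrnpab-001, which shares 34.1%. Reads in exons common to both forms count for each, so these values cannot separate the genes. In Srsf4, 43.0% of the exons overlap Gm12992 on the other strand (0.07, SE 0.06). The counted transcript Srsf4-001 shares 67.9% of its length with Gm12992, which had a mean count of 643, against 1056 for Srsf4. The 2 Srsf4 transcripts outside the overlap, Srsf4-003 and Srsf4-004, were at 0.08 and 0.03 in the test of all transcripts, where Srsf4-001 was at 0.05. In Hnrnpm the neighbour, March2, lies on the same strand and shares 29.7% of the counted Hnrnpm-001. March2 had a mean count of 834, against 2057 for Hnrnpm, and was at -0.08 (SE 0.06). Srsf2 overlaps Mettl23 over 15.6% of its exons and Mfsd11 over 9.74%, both on the other strand. The counted transcript Srsf2-001 shares 24.2% of its length with Mettl23 and 15.2% with Mfsd11. Mettl23, listed as 1110005A03Rik, had a mean count of 1892, against 1739.5 for Srsf2, and was at -0.08 (SE 0.05). Mfsd11 had a mean count of 698.5 and was at 0.10 (SE 0.06). Their part in the Srsf2 value was not tested.

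Since Dicer1 makes microRNAs, the 3′ UTRs were searched for sites of 14 microRNAs known from brain, each site being the 7 letters that pair with bases 2 to 8 of the microRNA, on the mRNA strand only. Each UTR was that of the protein-coding GENCODE M21 transcript with the nearest ends, which need not be the transcript whose counts were tested. A match is a description of the letters and not a tested site. At least 1 site was found in 19 of the 29 UTRs (65.5%), against 69.6% of 13338 genes. The microRNAs below are shown because miR-30a had the most matches, let-7a had none and miR-7a comes from a member of the set; capitals mark the seed, and sequences are those of RefSeq on GRCm38.p6.
mmu-miR-30a-5p: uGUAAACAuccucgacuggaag
mmu-let-7a-5p: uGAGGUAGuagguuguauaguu
mmu-miR-7a-5p: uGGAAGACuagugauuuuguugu

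The miR-30 site TGTTTAC was present in 8 of 29 UTRs (27.6%), against 14.7% of all, in Hnrnpa3, Hnrnpab, Hnrnpu, Hnrnpul2, Srsf10, Srsf12, Srsf2 and Srsf7. The let-7 site CTACCTC was in 0 of the 29 and in 9.62% of all. The median log2 fold change was -0.07 for members with the miR-30 site and -0.04 for those without, while over all genes the medians were 0.01 with the site and -0.01 without. The 2 genes with the lowest log2 fold changes both held it, and so did Hnrnpu on the positive side. For Hnrnpu the scanned UTR (5011 bases) belongs to another transcript than the counted one, which is 2844 bases long in all. Their sites follow, each 30 bases of the 3′ UTR in GENCODE M21 on GRCm38, read on the mRNA strand with the match in capitals.
Srsf12, chr4:33232980-33233009, plus strand: gtcaaagagataTGTTTACagatttactct
Hnrnpab, chr11:51601243-51601272, minus strand: aaatcactctccTGTTTACtattccagagc
Hnrnpu, chr1:178325200-178325229, minus strand: ttgctgcttgtaTGTTTACcaattactgct
By the number of kinds of site, the 6 genes with at least 3 kinds had a median of -0.04, and the 23 with fewer had -0.05. Over all genes the same medians were 0.02 and -0.01.

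Hnrnpk is itself a microRNA host. The hairpin of miR-7a-1 lies within it on the same strand (chr13:58392779-58392886, GRCm38.p6) and yields the miR-7a shown above. No annotated Hnrnpk exon holds the whole hairpin. The same mature sequence is also listed at a locus on chromosome 7, so Hnrnpk is not its only source. The spliced host mRNA was measured here and the microRNA was not; the log2 fold change of the host was -0.02. The letters that pair with the miR-7a seed, GTCTTCC, were found in Hnrnpa3, Hnrnpul2 and Srsf10, at -0.07, -0.07 and -0.02, a share of 10.3% against 12.5% of all genes.

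Genes that work with SR and hnRNP proteins were examined as lists, and with all 6 libraries 0 genes of each list passed the test in either direction. Of 10 kinases and importers of SR proteins, 5 were positive, with a median of -0.00; Srpk3, a kinase known best from muscle, had 5.97, 6.00 and 6.20 CPM in DICER1-ifKO against 4.34, 5.29 and 4.67 CPM in WT (log2 fold change 0.34, SE 0.14, edgeR adjusted p = 0.386). Without WT replicate 1, 3 of the 10 were positive, with a median of -0.03. Of the 22 SR-related proteins outside the Srsf names 16 were positive, with a median of 0.04. Their summed level was 3629, 3689 and 3549 CPM in DICER1-ifKO libraries against 3211, 3642 and 3455 CPM in WT libraries, so WT replicate 1 was the low library and WT replicate 2 lay within the DICER1-ifKO range. Without WT replicate 1, 15 were positive and the median was 0.02. Srrm2, a scaffold of nuclear speckles, had 844, 843 and 798 CPM in DICER1-ifKO against 631, 778 and 727 CPM in WT (0.22, SE 0.06, adjusted p = 0.158 in the same test). Srrm4, the neuronal factor for microexons, had 49.5, 52.5 and 52.3 CPM in DICER1-ifKO against 39.3, 47.0 and 45.3 CPM in WT (0.22, SE 0.07). In both genes WT replicate 1 was the lowest library, and without it Srrm2 was at 0.14 (SE 0.05) and Srrm4 at 0.16 (SE 0.06). With the offset for transcript length and GC content Srrm2 was at 0.15 (SE 0.05) and Srrm4 at 0.17 (SE 0.06). Without WT replicate 2, Srrm2 was at 0.29 (SE 0.05) and passed the threshold (edgeR adjusted p = 0.0176). Srrm4 was then at 0.28 (SE 0.07) and did not pass.

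Of 17 hnRNP proteins outside the Hnrnp names, 10 were negative with a median of -0.05, and without WT replicate 1 there were 13 with a median of -0.06. Hnrpdl, the near relative of Hnrnpd, was at -0.11 (SE 0.05) and Rbmxl1 at -0.23 (SE 0.07), both with no overlap between the genotypes. Of 33 core spliceosome genes 18 were negative (median -0.01), and 17 without WT replicate 1 (median -0.00). Snrpb2, which encodes a protein of the U2 particle, was at -0.22 (SE 0.08), while Prpf8, the heart of the catalytic core, was at 0.12 (SE 0.04) and the helicase gene Ddx17 at 0.14 (SE 0.05). With the offset for transcript length and GC content they were at -0.18, 0.07 and 0.11. Of 16 genes of nonsense-mediated decay and the exon junction complex 11 were positive (median 0.02), and 9 without WT replicate 1 (median 0.01). With the offset, 7 of the 16 were positive and the median was -0.00. Ncbp1, of the nuclear cap-binding complex, was at -0.17 (SE 0.06), and at -0.13 (SE 0.06) without WT replicate 1.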

How the data were processed

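Hippocampal mRNA was prepared with a stranded Illumina kit, per the labels' protocols, in 3 biological replicates per genotype. The authors deposited, per transcript, raw counts and normalised values (a signal: counts divided by a size factor, checked on the files); only the raw counts were tested. Tools named in the submitters' processing notes are TopHat2 2.0.6 with Bowtie2 2.0.5, SAMtools 0.1.18, CASAVA 1.8.2 and DESeq2, and builds GRCm38 and mm10; neither read counter, annotation release nor strand setting is given in the sources used here. For each symbol the transcript with the highest mean count was kept. Counts were tested with edgeR 4.0.16 (R 4.3.3; TMM, filterByExpr with a minimum count of 10, quasi-likelihood F-test, Benjamini-Hochberg adjustment, threshold 0.05) without covariates, and CPM used the TMM library sizes. Fold changes used a prior count of 0.125. DESeq2 1.42.0 was an alternative, and the fit was tested on simulated data. The genes, lists and tests were chosen with earlier results of these data known; protein families and the microRNA scan were added after the files were read. Full values were given for the 6 highest and 6 lowest fold changes, the 4 highest and 2 lowest levels, and the transcripts at both ends of the 6 widest gaps. From each list up to 3 genes of smallest p could be named. The values of the lists and markers with 1 library left out or with the offset for transcript length and GC were chosen after seeing the data. Protein features were not used here.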

Additional observations from a re-analysis of the deposited data

How the results depend on the processing

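Of the 13 alternatives computed, the test with no filter on low counts called 1 SR or hnRNP gene, Hnrnpab (log2 fold change -0.204, adjusted p = 0.0498), and the others called 0, where DESeq2 gave no adjusted p for Srsf12. Over all genes the count of calls was 28, against 68 with DESeq2, 151 with no filter, 7 with counts summed over transcripts, 22 with a replicate block, 16 with the replicate block plus an offset for transcript length and GC, and 6 to 105 with one library left out. The median of the 29 ran from -0.0615 to -0.0204 with one library left out. Called transcripts ran from 0 to 1. Signs turned only for genes near zero. With summed counts Srsf1 was at 0.0105 and Srsf10 at 0.0121. With the offset Hnrnpk was at 0.00328 and Srsf11 at 0.0013, and with the replicate block added at 0.00234 and 0.0027. With one library left out the turned ranges were -0.00657 to 0.0514 for Hnrnpf, -0.0223 to 0.0592 for Hnrnph3, -0.0372 to 0.00478 for Hnrnpk, -0.0371 to 0.0486 for Hnrnpl, -0.0237 to 0.0169 for Srsf1, -0.0477 to 0.0392 for Srsf10, -0.0594 to 0.0105 for Srsf11 and -0.00929 to 0.0534 for Srsf7. The cause of these moves was not tested. The other 21 genes kept their sign throughout. Deviations of same-numbered libraries from their group means had correlations of -0.07, 0.07 and -0.11 over 15427 genes. Libraries of unlike number had correlations from -0.125 to 0.179. With 3 libraries a genotype, such values cannot tell whether the numbers stand for a pairing. The replicate block gave 0 calls among the 29. With 1 library left out or with the offset, the log2 fold change of 22 of the 29 moved by over 1.5 times at least once, and that of the other 7 did not. With 3 pooled libraries a genotype, the precision is that of the intervals given.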
